A study of Mus musculus with 2 samples.

Results

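The Hox genes of the mouse were followed on both arrays of a study of dorsal root ganglion (DRG) neurons, the sensory neurons that lie beside the spinal cord. Every non-control probe whose gene name was Hoxa, Hoxb, Hoxc or Hoxd with a number was taken, which gave 52 probes for 39 genes among 36959 gene names with a usable probe. Each gene was represented by its brightest probe free of GA or GAA repeats, and 0 of the 52 Hox probes held such a repeat. One probe was available for 29 of these genes and several for 10.

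Total RNA of DRG neurons came from Dock8-/- and Dock8+/- mice, with 1 array per genotype. Both groups were on the C57BL/6 strain and both carried the AND T cell receptor transgene, so neither group is wild type or free of the transgene. The Dock8-/- sample was labelled as having a high IL-31 level and the Dock8+/- sample a low one, IL-31 being a cytokine that causes itch. Age, sex, the number of animals pooled and the spinal levels of the ganglia taken are not given in the sources used here. With 1 array per genotype, no difference below has a replicate check, and none was tested.

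Hox genes encode homeodomain transcription factors that set the identity of each level along the head-to-tail axis. They lie in 4 clusters, Hoxa to Hoxd, and are numbered by paralogue group. Genes with low numbers are switched on in the hindbrain and neck, whereas genes with high numbers are switched on further back, in the lumbar, sacral and tail regions, an order called collinearity. Adult tissues often keep the Hox pattern of the level they came from, as sensory neurons and fibroblasts do. The label of the set names axial position, but no axial level was recorded for these samples, so the data give Hox signals and not a position.

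Both arrays lay on the same slide. The Dock8-/- array was the dimmer one. Its 75th percentile of processed signal was 146, against 304 on the Dock8+/- array, and 50.7% of its probes were well above background, against 56.9% in the Dock8+/- sample. All differences below are log2 Dock8-/- minus Dock8+/- after each array's 75th percentile was set equal, so a gene with a scaled difference of 0 had 2.09 times as much unscaled signal in the Dock8+/- sample. A gene was called measured when its probe was flagged well above background, or read, in both samples, as held for 18575 gene names with a median difference of 0.02. Repeated spots of 1 probe gave an SD of 0.06 for a difference, while different probes of 1 gene gave an SD of 0.59 over all genes and 0.31 over 5 Hox genes. For Dock8, the deleted gene, a single probe passed the background flag, in the Dock8+/- sample alone. Its signal was 6.88 in the Dock8-/- sample and 20.5 in the Dock8+/- sample. The other Dock8 probes passed the flag in neither sample. Among them, a probe with 12.1 in the Dock8-/- sample and 3.90 in the Dock8+/- sample went the other way, and the rest had more signal in the Dock8+/- sample. The part of the gene that these probes cover relative to the deletion was not examined. General neuronal markers were measured for 12 of 12 genes and sensory neuron markers for 13 of 14, with medians of 0.07 and 0.01.

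What a Hox probe reads is shown by 3 probes from the scanner files that hold coding sequence of 2 posterior genes and of a mid-axial one. In the Hoxd10 and Hoxc11 probes the capitals mark the bases that code for the start of the recognition helix, the part of the homeodomain that contacts DNA. In the Hoxa6 probe the capitals mark the 12 bases coding for the short peptide through which Hox proteins bind PBX cofactors. The Hoxd10 probe lies at chr2:74532280-74532339 on the plus strand, the Hoxc11 probe at chr15:102787015-102787074 on the plus strand and the Hoxa6 probe at chr6:52158194-52158253 on the minus strand, all on mouse build mm9.
Hoxd10: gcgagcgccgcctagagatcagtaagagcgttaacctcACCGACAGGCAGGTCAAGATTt
Hoxc11: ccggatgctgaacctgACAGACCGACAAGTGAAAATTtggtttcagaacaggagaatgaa
Hoxa6: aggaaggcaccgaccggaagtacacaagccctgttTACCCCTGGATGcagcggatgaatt
At their best ungapped alignment the Hoxd10 and Hoxc11 probes shared 24 of 38 bases, so the stretches that code for the most conserved part of these proteins still differed between the genes. Signals of different genes are not compared below, because each probe binds with its own strength.

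Of the 39 Hox genes, 23 were measured on both arrays, 0 were read on the Dock8-/- array only, 8 on the Dock8+/- array only, and 8 on neither. Over all genes read on at least 1 array, 2.34% were read on the Dock8-/- array only and 11.8% on the Dock8+/- array only, against 0 and 8 of the 31 Hox genes so read. Among the measured genes 18 had a difference below 0 and 5 above it, and the background share below 0 was 48.4%. Their median was -0.27. Hoxc5 and Hoxc6 were at least 2-fold lower in the Dock8-/- sample and no Hox gene was at least 2-fold higher, where the background shares were 7.07% lower and 8.7% higher. The count of 2 of 23 is near the background share. The shares of 18 of 23 below 0 and of 8 of 31 read in the Dock8+/- sample only lay above theirs, with no test. The signs depended on the scaling. After normexp background correction 9 were above 0 and 14 below it, with Hoxa2, Hoxa5, Hoxa9 and Hoxd4 changing side, and under spike-in scaling 0 were above and 23 below, with the median of all genes at -1.81. Relative to the median of all genes, the Hox median was -0.30 under the main scaling and under spike-in scaling, and -0.18 after normexp correction.

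**Figure D1:**
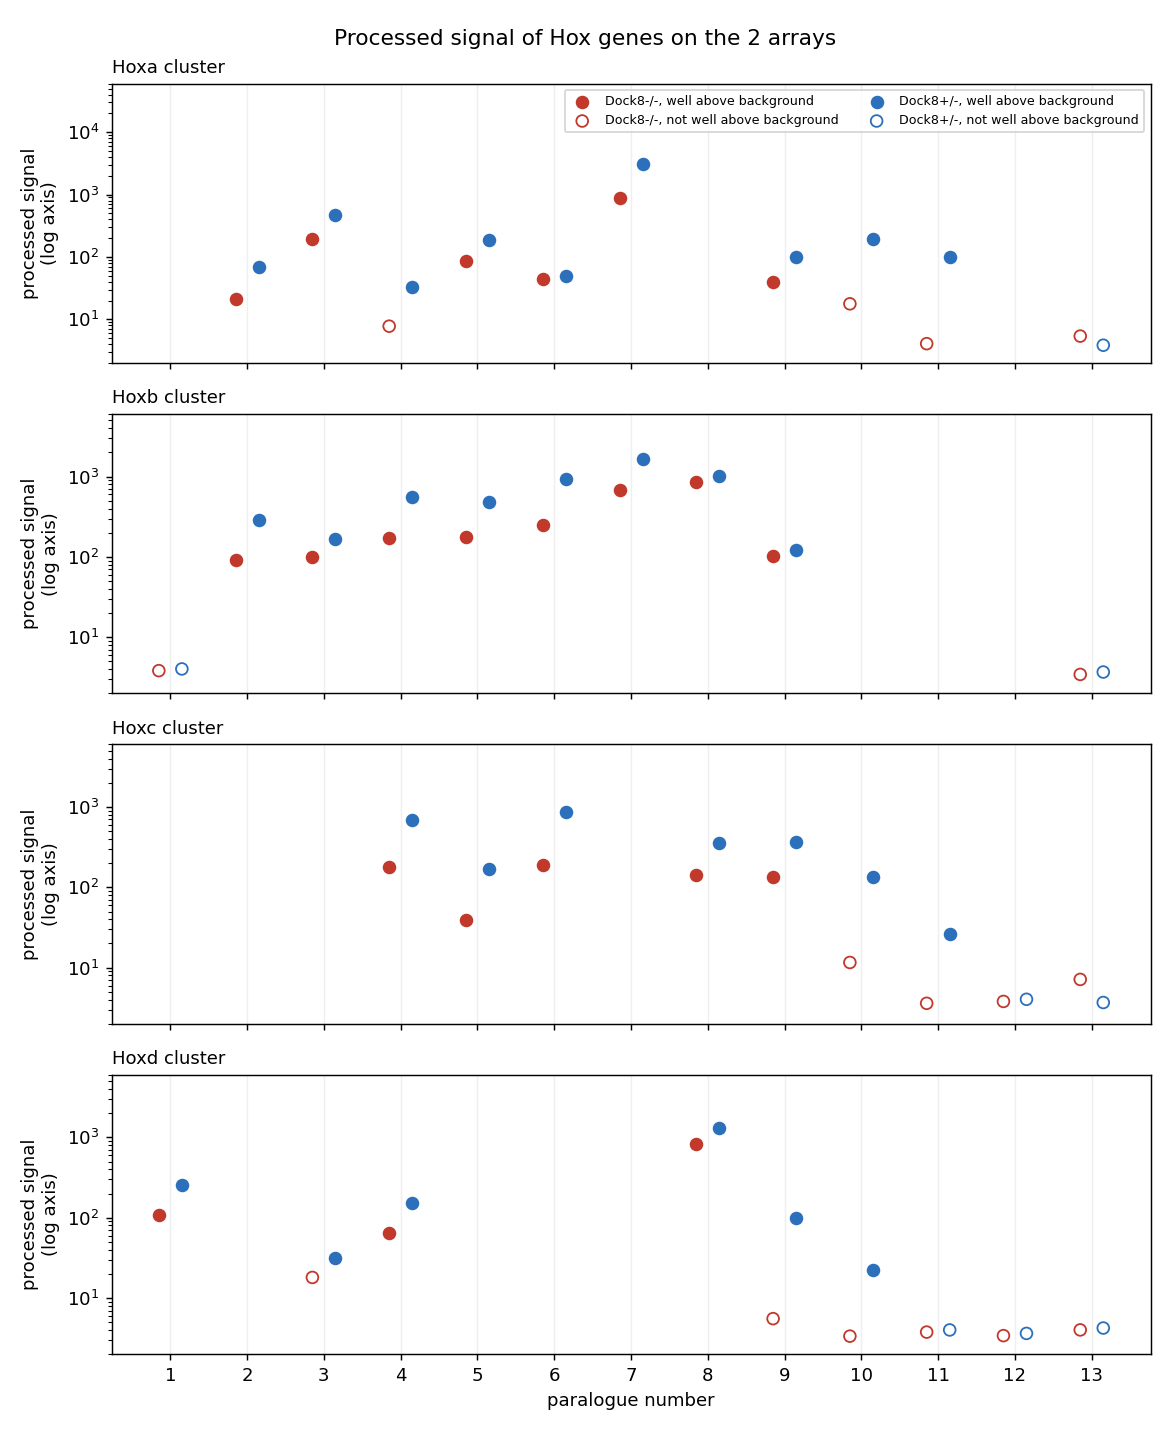
Processed signal (scanner units, log axis) of the brightest probe of each Hox gene shown, by cluster and paralogue number, with the Dock8-/- array left of the Dock8+/- array and open circles for signals not well above background. Filled Dock8-/- circles end at paralogue 9 in Hoxa, Hoxb and Hoxc and at paralogue 8 in Hoxd, while filled Dock8+/- circles reach paralogue 11 in Hoxa and Hoxc and 10 in Hoxd.

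Paralogue groups 10 and 11 were read in the Dock8+/- sample only, apart from Hoxd11. None of the 12 genes of paralogue groups 10 to 13 was read on the Dock8-/- array, and 5 of them, Hoxa10, Hoxa11, Hoxc10, Hoxc11 and Hoxd10, were so on the Dock8+/- array. All 3 group 10 genes and 2 of the 3 group 11 genes were in this class, whereas all 6 genes of groups 12 and 13 were read on neither array. In bulk RNA of this kind, fewer cells that express a gene and less RNA per cell cannot be told apart.

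Hoxa10 patterns the lumbar region and the limb. Its brighter probe, at chr6:52181437-52181496 on the minus strand, had a signal of 17.8 in the Dock8-/- sample and 194 in the Dock8+/- sample. A second Hoxa10 probe had 4.56 in the Dock8-/- sample and 44.6 in the Dock8+/- sample. Both probes were thus read only in the Dock8+/- sample. The scaled difference of the brighter probe is treated as a bound, 5.21-fold lower in the Dock8-/- sample. That bound equals the plain difference, -2.38, because 17.8 lies above the lowest read signal of that array, 16.1.

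Hoxc10 is a lumbar gene that acts in spinal motor neuron identity. Its probe at chr15:102801857-102801916 on the plus strand had a signal of 11.6 in the Dock8-/- sample and 134 in the Dock8+/- sample, which gives at least 3.99-fold lower in the Dock8-/- sample. Hoxa11, which patterns the forearm, the sacral region and the uterus, had 4.09 in the Dock8-/- sample and 99.8 in the Dock8+/- sample at chr6:52192107-52192166 on the minus strand. Its bound was at least 2.97-fold lower. Hoxd9, a gene of the lower trunk and hindlimb with a probe at chr2:74537676-74537735 on the plus strand, had 5.54 in the Dock8-/- sample and 100.04 in the Dock8+/- sample, again at least 2.97-fold lower. For these bounds the dim Dock8-/- signal was replaced by 16.1, the lowest read signal of that array, unless it was itself higher. Of all genes read only on the Dock8+/- array, 17.4% had a bound of at least 2-fold, against 4 of 8 Hox genes. After normexp background correction 0 of the 4 bounds reached 2-fold.

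Hoxd10 and Hoxc11, whose probe sequences are given above, were nearer the floor. Hoxd10, a lumbar gene that acts in hindlimb motor neurons, had a signal of 3.36 in the Dock8-/- sample and 22.1 in the Dock8+/- sample. Hoxc11 had 3.60 in the Dock8-/- sample and 26.5 in the Dock8+/- sample. Both were read only in the Dock8+/- sample, but after scaling the floor of the Dock8-/- array lies too close to give a fold. Another scanner flag, for a signal that is positive and significant against background, marked Hoxa10, Hoxa11, Hoxc10 and Hoxd9 also on the Dock8-/- array, but not Hoxc11 and Hoxd10.

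**Figure D2:**
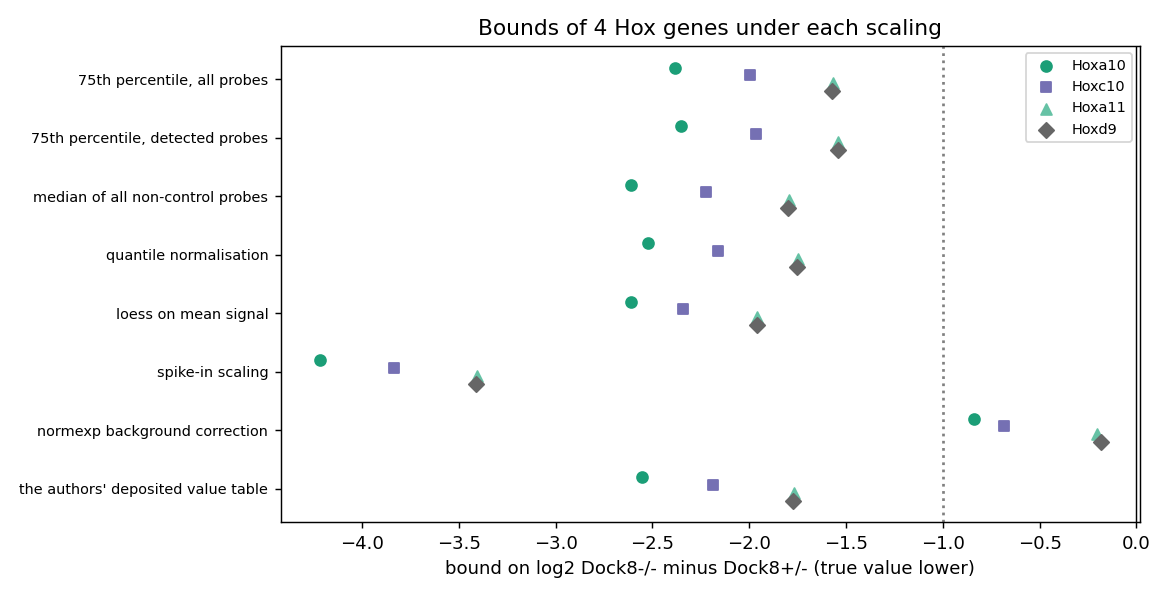
Bounds on the log2 difference (Dock8-/- minus Dock8+/-) of Hoxa10, Hoxc10, Hoxa11 and Hoxd9 under 8 scalings, with the dotted line at 2-fold lower. All 4 bounds lie past 2-fold under every scaling drawn except normexp background correction, where none does, and the Hoxa10 bound ranges from 1.79-fold to 18.6-fold lower.

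In the Hoxa, Hoxc and Hoxd clusters the highest-numbered gene measured on both arrays stood next to a gene read only in the Dock8+/- sample. Hoxa9 was measured on both arrays and Hoxa10 only on the Dock8+/- array. Hoxc9 and Hoxc10 stood in the same relation, as did Hoxd8 and Hoxd9. In the Hoxb cluster, Hoxb9 was measured on both arrays and Hoxb13, the next gene, on neither. The genes read on neither array were Hoxa13, Hoxb1, Hoxb13, Hoxc12, Hoxc13, Hoxd11, Hoxd12 and Hoxd13. All but Hoxb1, a hindbrain gene, belong to groups 11 to 13, whose members act in the most caudal body, the digits and the urogenital tract.

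Paralogue groups 6 to 9, which act mainly at thoracic levels, held 12 genes, of which 11 were measured with a median of -0.26 and a range of -1.15 to 0.92. Hoxc6, which acts at the boundary of neck and thorax, had a signal of 187 in the Dock8-/- sample and 870.3 in the Dock8+/- sample, a difference of -1.15 (2.22-fold lower in the Dock8-/- sample). Its second probe gave a difference of -0.59, so the call rested on the brighter probe. Hoxb6 had 249 in the Dock8-/- sample and 932 in the Dock8+/- sample, a difference of -0.84. For Hoxa7, the signals were 869.7 in the Dock8-/- sample and 3064 in the Dock8+/- sample, a difference of -0.76. Of these 3 genes, Hoxc6 alone passed 2-fold, and with no second array per genotype the spread between samples is unknown.

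Other members of these groups lay higher in the Dock8-/- sample. Hoxa6 had a signal of 44.2 in the Dock8-/- sample and 48.9 in the Dock8+/- sample, a difference of 0.92. Hoxb8, for which mutant mice groom excessively and show altered spinal sensory circuits, had 854.5 in the Dock8-/- sample and 1004 in the Dock8+/- sample. Its difference was 0.83, and 0.63 by its second probe. Hoxb9, a gene of thoracic levels, had 101.5 in the Dock8-/- sample and 122 in the Dock8+/- sample, a difference of 0.79. Hoxd8 differed by 0.40, and by 0.27 with its second probe. These 4 genes were the measured members of groups 6 to 9 above 0, and all 4 were less than 2-fold higher. Under spike-in scaling all 4 lay below 0, as all measured Hox genes did, and under the other scalings they stayed above it.

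Hoxc8, Hoxc9, Hoxb7 and Hoxa9 lay nearer 0. Hoxc8, which patterns the brachial and thoracic cord, had a signal of 143.5 in the Dock8-/- sample and 359.5 in the Dock8+/- sample, a difference of -0.26. Hoxc9, which marks the thoracic limit of limb-level motor neurons, had 136 in the Dock8-/- sample and 370.5 in the Dock8+/- sample, a difference of -0.38. Hoxb7 had 673 in the Dock8-/- sample and 1668 in the Dock8+/- sample, a difference of -0.25. Hoxa9 had 40.1 in the Dock8-/- sample and 101 in the Dock8+/- sample, a difference of -0.27, while another of its probes gave 0.44. Its direction thus depended on the probe.

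**Figure D3:**
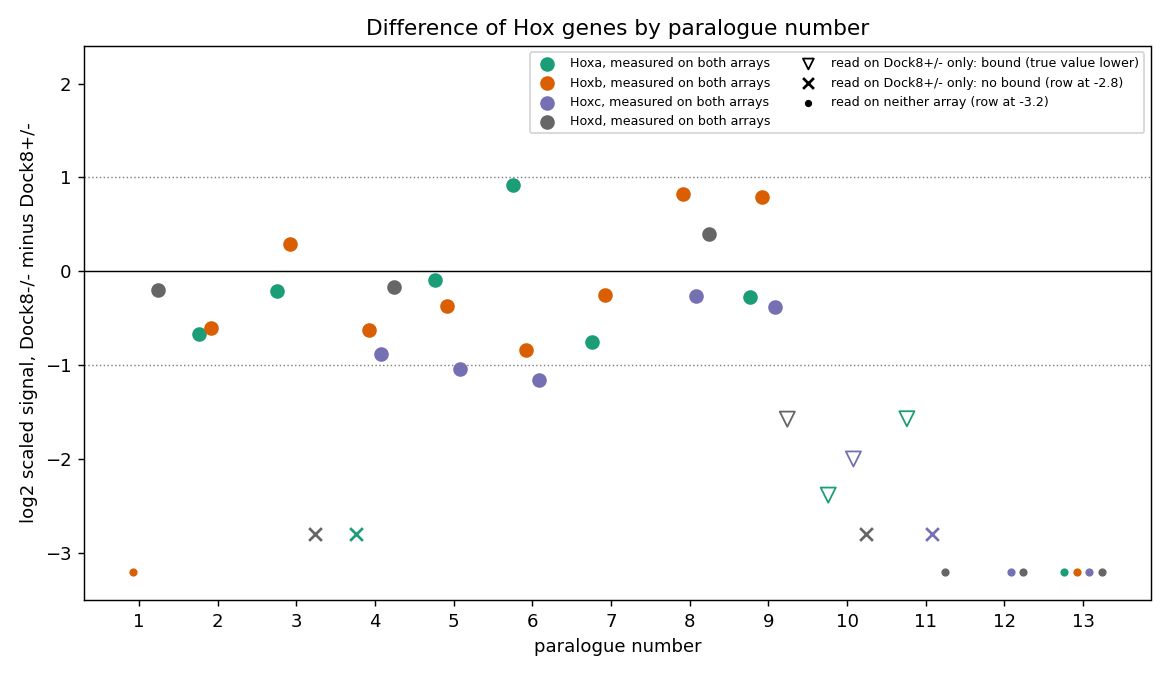
Log2 difference of scaled signal (Dock8-/- minus Dock8+/-) of each Hox gene shown, by paralogue number, with dotted lines at 2-fold, triangles for bounds, and separate marker rows near the bottom, which are not values, for genes with no bound or read on neither array. Measured genes span -1.15 to 0.92 and end at paralogue 9, and the 4 bounds lie at paralogues 9 to 11.

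Paralogue groups 1 to 5, which act in the hindbrain and neck, held 15 genes, of which 12 were measured with a median of -0.45, and 11 of the 12 lay below 0. Hoxc5, a cervical gene, had a signal of 39.6 in the Dock8-/- sample and 169.6 in the Dock8+/- sample, a difference of -1.04 (2.05-fold lower in the Dock8-/- sample), but of -0.33 after normexp correction. Its neighbour Hoxc4 had 177 in the Dock8-/- sample and 681 in the Dock8+/- sample, a difference of -0.88. Together with Hoxc6 these made a run of adjacent genes with the lowest differences of the measured Hox genes under the 75th percentile scaling. After normexp correction Hoxa7 and Hoxb6 lay below both Hoxc4 and Hoxc5, and Hoxb2, Hoxb4, Hoxb5 and Hoxb7 also lay below Hoxc5. Under loess Hoxa2 lay below Hoxc4.

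Hoxa2, which sets the identity of the hindbrain and of the second pharyngeal arch, had a signal of 21.2 in the Dock8-/- sample and 70.3 in the Dock8+/- sample, a difference of -0.66. Hoxb4, a gene of the neck and also of blood stem cells, had 174 in the Dock8-/- sample and 562 in the Dock8+/- sample, a difference of -0.63. Hoxb2 had 90.5 in the Dock8-/- sample and 287 in the Dock8+/- sample, a difference of -0.60. None of these 3 reached 2-fold.

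Further anterior genes lay closer to 0. Hoxb5 differed by -0.37, Hoxa3 by -0.21, Hoxd1 by -0.19, Hoxd4 by -0.17 and Hoxa5 by -0.09. Hoxd1, which in the mouse acts in the wiring of pain-sensing neurons, had a signal of 106.8 in the Dock8-/- sample and 255 in the Dock8+/- sample. Hoxb3 was the only measured gene of the group above 0, with 98.8 in the Dock8-/- sample and 169 in the Dock8+/- sample, a difference of 0.29, and its 3 probes ran from 0.29 to 0.74. Hoxa4 had 7.80 in the Dock8-/- sample and 33.2 in the Dock8+/- sample, and Hoxd3 had 18.1 in the Dock8-/- sample and 31.8 in the Dock8+/- sample. Both were well above background in the Dock8+/- sample only and too dim to give a fold.

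By cluster, the medians were -0.27 for Hoxa (7 measured of 11), -0.31 for Hoxb (8 of 10), -0.88 for Hoxc (5 of 9) and -0.17 for Hoxd (3 of 9). All 5 measured Hoxc genes were below 0, whereas the 3 other clusters held genes on both sides. Hoxb was the cluster in which 0 genes were read on the Dock8+/- array only. Over the 23 measured genes, paralogue number and difference had a Spearman correlation of 0.21 and a Pearson correlation of 0.32, with Spearman correlations of 0.11 over the 7 Hoxa genes and 0.52 over the 8 Hoxb genes. These describe genes of the same arrays, which are not independent, and they leave out the posterior genes because those were not measured on the Dock8-/- array.

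Promoters of 2 posterior genes read only on the Dock8+/- array are given from RefSeq on build GRCm38.p6, as the 250 bases before the start, with CG pairs in capitals. CG-rich starts of developmental genes are the sites at which Polycomb complexes commonly act. The Hoxa10 window lies at chr6:52234940-52235189 on the minus strand and the Hoxd10 window at chr2:74691641-74691890 on the plus strand, and each held 20 CG pairs. These windows were chosen for their CG content: a second Hoxa10 window held 7, and those of the other genes read only in the Dock8+/- sample held 13 for Hoxa11, 13 for Hoxd9 and 12 for Hoxd3.
Hoxa10: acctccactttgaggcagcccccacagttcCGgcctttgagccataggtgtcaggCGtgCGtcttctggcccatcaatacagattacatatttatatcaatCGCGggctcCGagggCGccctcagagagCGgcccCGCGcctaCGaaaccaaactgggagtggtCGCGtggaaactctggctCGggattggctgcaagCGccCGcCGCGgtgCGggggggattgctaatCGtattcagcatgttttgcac
Hoxd10: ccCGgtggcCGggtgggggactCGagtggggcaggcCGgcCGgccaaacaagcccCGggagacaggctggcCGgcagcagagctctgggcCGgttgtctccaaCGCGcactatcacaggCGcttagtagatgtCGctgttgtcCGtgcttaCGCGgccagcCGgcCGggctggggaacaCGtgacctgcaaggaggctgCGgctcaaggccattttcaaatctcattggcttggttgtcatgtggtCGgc
Windows were present for 22 of the 39 Hox genes, 24 windows in all. At least 20 CG pairs were found in 8 of these 24 (33.33%), against 17.95% of all 32851 windows. The letters TTTAT, the core bound by posterior homeodomains, occurred on either strand in 9 of the 24 Hox windows (37.5%), against 37.26% of all windows. The composite PBX and Hox motif TGATTNAT occurred on either strand in 2 of the 24 (8.33%), against 2.82%. A match of letters is a description and not a binding site.

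Hox proteins bind DNA together with PBX, MEIS and PREP proteins. Of 12 such cofactor genes, including the Tshz genes, 11 were measured, 10 had a difference above 0, and 0 were 2-fold apart, with a median of 0.13. Meis1 differed by 0.04 with its brightest probe but by 2.03 with another, so the count of 0 holds for the brightest probes. Pbx4 was read only in the Dock8+/- sample, with no fold. Counts for this list and those below are for the 75th percentile scaling, as are these shares over all measured genes.

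Non-coding RNAs of the clusters were named by the files for 7 of the 17 symbols listed, and 5 were measured with a median of -0.27. Hoxa11os, transcribed antisense to Hoxa11, had a signal of 35.0 in the Dock8-/- sample and 152 in the Dock8+/- sample, a difference of -1.06 (2.08-fold lower in the Dock8-/- sample). It thus lay lower together with Hoxa11 itself. Hoxb5os gave opposite directions with its probes, 0.87 with the brightest and -1.64 with another, so no direction is given for it. Hoxaas2, Hoxaas3 and Hoxd3os1 differed by less than 2-fold, and Halr1 and Hottip were read on neither array.

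Genes that flank the clusters on the chromosome were measured for 14 of 17 with a median of 0.13 and 1 at least 2-fold apart. That gene was Skap1, an adaptor of T cell signalling beside Hoxb1, with a signal of 74.6 in the Dock8-/- sample and 62.8 in the Dock8+/- sample, a difference of 1.31. All 24 Polycomb genes, whose complexes hold Hox genes silent, were measured with 0 of them 2-fold apart and a median of -0.02. All 14 Trithorax and demethylase genes, which keep Hox genes active, were measured with a median of 0.46. Of these, 11 lay above 0 and 3 below it, where 48.4% of all measured genes lay below 0. At least 2-fold higher were 2 of the 14, where the background share was 8.7%. Kmt2d, a histone H3 methyltransferase, differed by 1.18. Psip1, a chromatin reader, differed by 1.08 with its brightest probe but by -0.58 with another.

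Retinoic acid and caudal genes set the Hox pattern in the embryo. Of 24 such regulators 16 were measured, 15 of them below 0, where the share over all measured genes was 48.4%, with a median of -0.45. Aldh1a2, the enzyme that makes retinoic acid in the embryonic trunk and in meninges, had a signal of 499 in the Dock8-/- sample and 2618 in the Dock8+/- sample, a difference of -1.33. Rarg, a retinoic acid receptor, had 436 in the Dock8-/- sample and 1865 in the Dock8+/- sample, a difference of -1.03. These 2 were the only regulators 2-fold apart with their brightest probe, where the share over all measured genes was 7.07% lower and 8.7% higher. Rara, another retinoic acid receptor, differed by -0.50 with its brightest probe but by -1.75 with another. Cdx1, Cdx2 and Cdx4, the caudal genes that switch on central and posterior Hox genes, were read on neither array.

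Other homeobox and T-box genes that mark position or mesenchyme differed in both directions. Of 29 such genes, 9 were measured, 6 were read only on the Dock8+/- array, 1 only on the Dock8-/- array and 13 on neither. Over all genes read on at least 1 array, 11.8% were read on the Dock8+/- array only and 2.34% on the Dock8-/- array only. Meox2, a gene of muscle and vessel precursors, had a signal of 142 in the Dock8-/- sample and 1411 in the Dock8+/- sample, a difference of -2.25. Prrx1, a gene of limb and skin mesenchyme, had 80.5 in the Dock8-/- sample and 634 in the Dock8+/- sample, a difference of -1.92. Lbx1, which is expressed in dorsal spinal cord neurons and in migrating muscle precursors, had 99.1 in the Dock8-/- sample and 39.5 in the Dock8+/- sample, a difference of 2.39. Meox1 was read only on the Dock8+/- array and was at least 7.43-fold lower in the Dock8-/- sample. Among the others so read, Tbx15 was at least 3.88-fold lower. The bounds of Dlx5, Tlx3 and Msx2 were only 1.52-fold, 1.31-fold and 1.12-fold, and Dlx1 had no fold. Pax6, a gene of the central nervous system, was read only in the Dock8-/- sample and was at least 5.64-fold higher there.

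Markers of cells other than neurons differed between the arrays alongside the Hox genes. Of 12 fibroblast and connective tissue genes 11 were measured, 8 were at least 2-fold lower in the Dock8-/- sample, where the background share was 7.07%, and the median was -2.26. The count of 8 holds for the brightest probes. Col1a2, Col3a1 and Fn1 each had another measured probe under 2-fold, at 0.05, -0.42 and 0.73, while the measured Col1a1 probes ran from -3.24 to -2.92. The summed signal of the fibroblast list was 0.171% of that of all genes in the Dock8-/- sample and 0.567% in the Dock8+/- sample. Col1a1, the main collagen of skin and bone, differed by -2.92, and Pi16, a marker of fibroblasts around vessels and nerve, by -3.81. Of 12 skeletal muscle genes 3 were measured with a median of -3.94 and 4 were read on the Dock8+/- array only, while Myog, Myod1 and Pax7 were read on neither. The other 2, Myh4 and Des, had a brightest probe that was not read on both arrays. Myh4 differed by -7.87 with that probe but by 0.72 with another, measured on both arrays. The brightest Des probe had a signal of 20.4 in the Dock8-/- sample and 13.3 in the Dock8+/- sample, a difference of 1.68. It was not read in the Dock8+/- sample, where another Des probe was, so no direction is given for Des. The summed signal of the muscle list was 0.0009% in the Dock8-/- sample and 0.0153% in the Dock8+/- sample. Macrophage markers had a median of -1.67, with 7 of 8 at least 2-fold lower.

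Among spinal cord and satellite glia markers most lay higher. Of 11 spinal cord genes all were measured, 6 were at least 2-fold higher, where the background share was 8.7%, and the median was 1.11. The glycine transporter Slc6a5 went the other way with a difference of -1.20, as did the vesicular GABA transporter Slc32a1 with -0.44. The summed signal of the spinal cord list was 0.0352% in the Dock8-/- sample and 0.0176% in the Dock8+/- sample, and Gfap, the filament of astrocytes, differed by 3.07. Of 9 satellite glia markers 6 lay above 0 and 3 below it (median 0.95), with Fabp7 at -2.21 and Sox10 at -0.97. Medians were -0.76 over 7 meningeal genes, -0.54 over 6 cartilage and bone genes, -1.06 over 5 adipocyte genes, -0.38 over 8 Schwann cell genes, -0.31 over 6 endothelial genes and 0.44 over 4 kidney genes. The part of any of these cell types in the Hox differences was not tested.

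**Figure D4:**
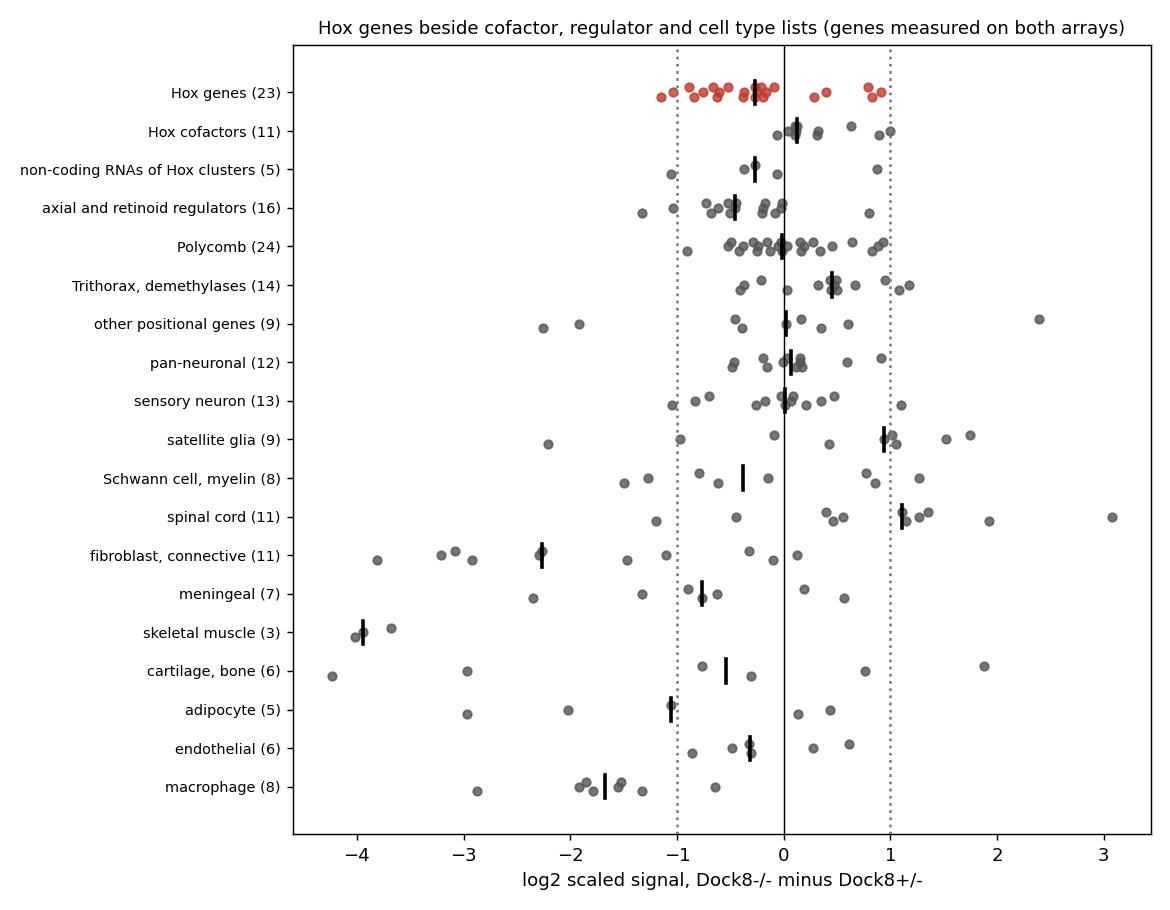
Log2 difference of scaled signal (Dock8-/- minus Dock8+/-) of each gene measured on both arrays, by list, with the number measured in brackets, black bars for the list medians and dotted lines at 2-fold. The Hox median is -0.27, the sensory neuron median 0.01, the fibroblast median -2.26 and the spinal cord median 1.11.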

How the data were processed

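Total RNA of DRG neurons was labelled with Cy3 and hybridised to 1 Agilent array per genotype, per the labels' protocols. The deposited scanner files hold linear intensities that the authors extracted with Agilent Feature Extraction, version 10.7.1.1 per the file headers and 9.5.1.1 per the submitters' processing notes. Dim spots were given a small surrogate value there. The authors' deposited value table, used as an alternative, also holds intensities on a linear scale. It was found to be quantile normalised, since 98.9% of its sorted values were equal in both columns (tolerance 0), with a largest gap of 0.665 and a median of 27.9 in each column. Its log2 values correlated with those of the matching scanner files at 0.9993 for Dock8-/- and 0.9997 for Dock8+/-. Its scale and direction are therefore those of intensity, no centring was seen, and 0 value columns were left unused.

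Spots of 1 probe were averaged as log2 processed signal without non-uniform spots (1 in the Dock8-/- sample and 3 in the Dock8+/- sample, with 0 saturated in either), and each array's 75th percentile over non-control probes was subtracted. Probes holding 4 or more GA or GAA repeats were dropped and the brightest remaining probe stood for a gene, under the gene name in the files. Every Hox gene entered the counts and those measured on both arrays the medians, single values of some genes are not reported here, and up to 4 measured members at least 2-fold apart, by size of the difference, could be named from each other list. Other genes named, such as Pbx4, Meis1, Meox1, Pax6 and those under 2-fold or read on no array, were chosen after their values were seen. The Hox members and the 20 lists were chosen with earlier results of these data known. Of the listed symbols, 13 had no probe under that name. Probe coordinates are those of the files on mm9, and exon annotation was not used here. A signal read on 1 array only was given as a bound.

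With 1 array per genotype there is no test, p-value or standard error, and 2-fold describes size only. The number of arrays limits the precision. The calculation was tested on simulated data. Alternatives were other scalings (8 spike-in probes, the median, quantile, loess with a span of 0.3), normexp with an offset of 50, other rules for probes and dim signals, and 1.5-fold and 3-fold thresholds. Python 3.11.15 and, for normexp and loess, limma 3.58.1 in R 4.3.3 were used.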

Additional observations from a re-analysis of the deposited data

How the results depend on the processing

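No paired analysis was possible because each genotype has 1 array, and for the same reason no array could be left out. The medians of all measured Hox genes and of groups 1 to 5 and 6 to 9 stayed below 0 under the alternatives run, while that of groups 10 to 13 took either sign and the sign of single genes changed for 4 after normexp correction, 5 under spike-in scaling and 1 with the mean of probes, Hoxa9. Without any filter on dim probes, 9 Hox genes were at least 2-fold lower and 2 higher, Hoxa13 and Hoxc13, which are read on neither array. With genes read on at least 1 array, 9 were lower. The 8 genes added in that setting were all read on the Dock8+/- array only. Its count and its medians therefore lean lower by construction. The count at least 2-fold lower was 8 at 1.5-fold, 0 at 3-fold, 7 with the positive and significant flag, 4 under median scaling, 22 under spike-in scaling, 1 after normexp correction and 1 with the mean of a gene's probes. The count higher was 3 at 1.5-fold and 1 with the mean of probes, Hoxb9, whose other probe was read on neither array. The shares over all genes, 7.07% lower and 8.7% higher, hold for the main setting only. They were not computed for the alternatives, so these counts cannot be read against a background. Under spike-in scaling the median of all genes was itself -1.81. The count of bounds of at least 2-fold, 4 in the report, was an added result chosen after seeing the data. It was 0 after normexp correction, 8 under spike-in scaling and 2 with the positive and significant flag, which by construction turns bounds into values. The median of all measured Hox genes was -0.38 with that flag, -0.39 under loess, -0.50 under median scaling, -0.20 after normexp correction, -0.35 under quantile normalisation, -2.11 under spike-in scaling, -0.36 in the authors' deposited table and -0.52 with genes read on at least 1 array. For groups 1 to 5 it was -0.51 under loess, -0.28 with the mean of probes, -0.67 under median scaling, -0.37 without a filter, -0.15 after normexp correction and -2.28 under spike-in scaling. For groups 6 to 9 it was -0.49 under median scaling and -2.10 under spike-in scaling. Groups 10 to 13 had no measured gene and so no median, except -2.47 with the positive and significant flag, -2.38 with genes read on at least 1 array and 0.97 without a filter, a value that the scaling gives to surrogate signals. The cause of the other shifts was not tested. Signal near background limits the dim genes: Hoxc11, Hoxd10, Hoxa4 and Hoxd3 have no fold, and the lowest signal flagged well above background was 16.1 in the Dock8-/- sample and 17.4 in the Dock8+/- sample.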
